A study of Mus musculus with 18 samples.

Results

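The 10 chemokine genes described here are Cxcl12, Cxcl1, Cxcl10, Cxcl14, Ccl2, Ccl5, Ccl7, Ccl8, Ccl9 and Cx3cl1. They were found by gene symbol in the platform's probe annotation, which gave 17 of 45281 probes and 10 of 19057 named genes. The cells were C2C12 myotubes, muscle fibre-like cells fused from a single immortalised mouse myoblast line, so the cultures hold no blood, vessel or immune tissue by origin. Myotubes in DMEM with 2% horse serum received 1 uM dexamethasone (Dex, a synthetic agonist of the glucocorticoid receptor) or the ethanol vehicle alone at 0.01% by volume. There were 4 Dex and 4 ethanol arrays at 6 h, and 5 Dex and 5 ethanol arrays at 24 h, all Illumina mouse whole-genome bead arrays. Nothing in the labels says that the replicates came from different cultures. The p-values therefore reflect the scatter among these arrays alone, which could be technical.

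Chemokines are small secreted proteins that bind to receptors on leukocytes and other cells and direct their movement along a gradient. Glycosaminoglycans on syndecans and glypicans hold them at the cell surface, and proteases release or trim them. Muscle cells secrete several of them, and in injured muscle they draw neutrophils and then monocytes into the tissue. Glucocorticoids are known to restrain many inflammatory chemokine genes, in part through the receptor's interference with the transcription factors NF-kB and AP-1.

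Chemokine RNA was lower in Dex myotubes for 4 genes at 6 h and for 6 genes at 24 h, judged by each gene's leading probe (the brightest over the 18 arrays). Cxcl12 fell most, 3.21-fold at 6 h and 2.98-fold at 24 h. Ccl7, Ccl2 and Cxcl1 were called lower at both times, and Ccl8 and Cx3cl1 at 24 h. Ccl9 alone was called higher, by 1.20-fold at 24 h. Cxcl10, Cxcl14 and Ccl5 were not called by their leading probes at either time. A probe was called at an adjusted p under 0.05, from limma's moderated test on log2 intensity with Benjamini-Hochberg adjustment over all 45281 probes. At 6 h, 4.04% of the leading probes of all genes were called lower and 4.31% higher, and at 24 h 7.73% were called lower and 8.05% higher. Over all 17 chemokine probes, 8 were called lower and 0 higher at 6 h, where 3.28% of all probes were lower and 2.98% higher. At 24 h, 9 were called lower and 1 higher, where 6.22% of all probes were lower and 6.43% higher. The median log2 fold change of the 10 leading probes was -0.26 at 6 h and -0.41 at 24 h, beside medians of 0.003 and -6.28e-05 for all genes. The 10 genes were chosen with earlier results of these data known. The shares and medians of all genes, here and below, are therefore given as description and do not test the genes as a set. In bulk RNA, fewer cells of a type and less RNA per cell cannot be told apart.

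The deposited values are linear intensities that still hold background. As a yardstick, the 1287 probes of olfactory receptor genes, a family used mainly in the nose of which a few members are also known in muscle cells, had a 95th percentile of group means of 103 in Dex and 103 in ethanol at 6 h, and of 90.6 in Dex and 90.7 in ethanol at 24 h. Array medians ran from 99.8 to 100.4 at 6 h and from 85.2 to 86.8 at 24 h. The 2 times therefore seem to have been normalized apart, and Dex was compared with ethanol only within a time. A fold change of a dim probe is understated by the background in it. Within the groups, deviations from the mean left 1 of 6 possible directions nearly empty at 6 h and 3 of 8 at 24 h, and an alternative fit took these near-empty directions as covariates.

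**Figure D1:**
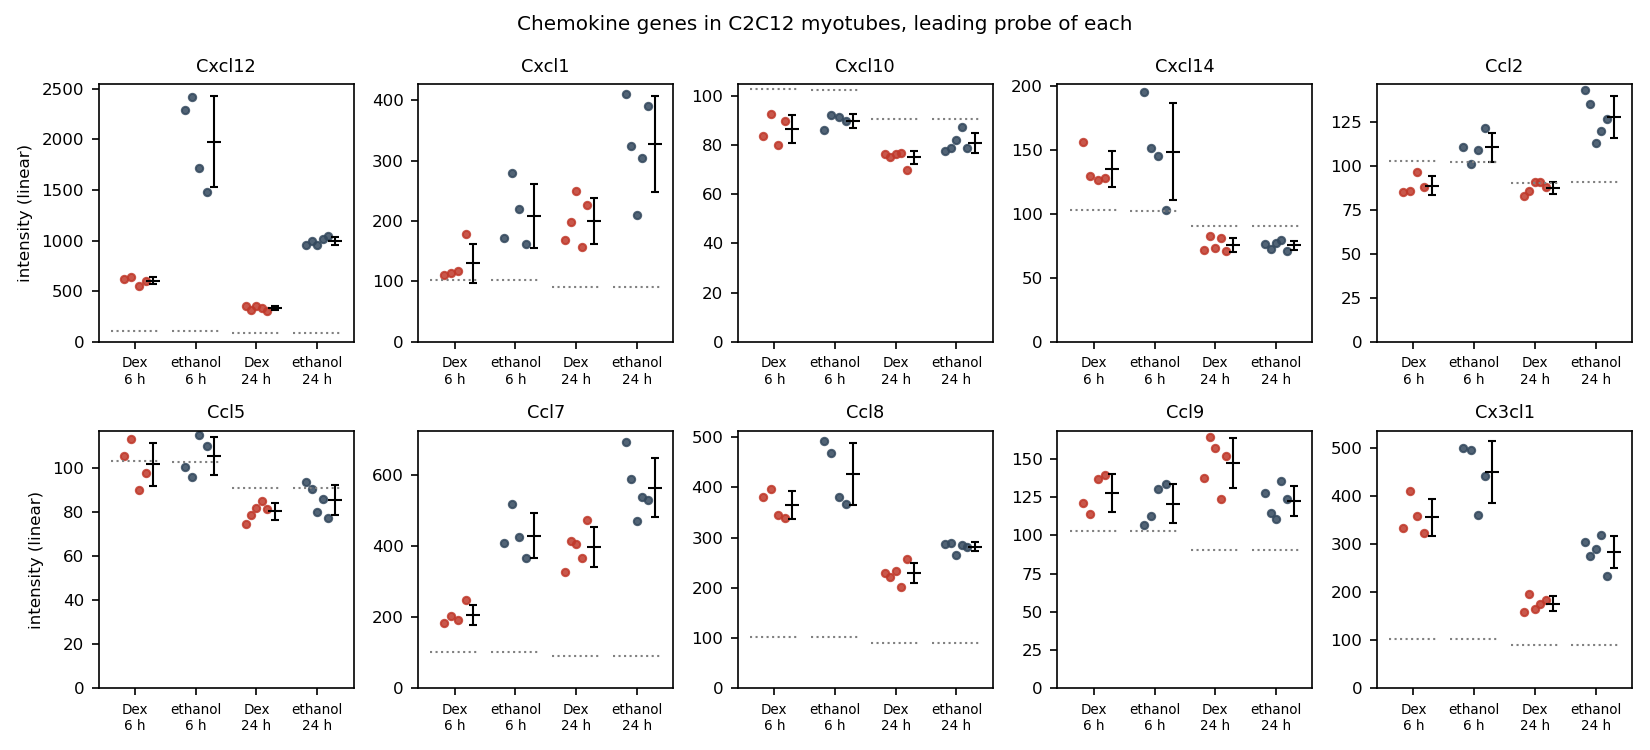
Intensity of the leading probe of each of the 10 chemokine genes on every array (linear axis), Dex left of ethanol at 6 h and at 24 h. Points are arrays, black bars are the mean ± SD, and the dotted line is the 95th percentile of the olfactory receptor probes. Dex and ethanol points stand apart at both times for Cxcl12 and Ccl2, at 6 h for Ccl7, and at 24 h for Cxcl10, Ccl8 and Cx3cl1.

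The stretch just before a gene's start shows which factor-binding letters its promoter holds. RefSeq windows of 250 bases before to 50 bases after the start (build GRCm38.p6) matched 7 of the 10 genes. No entry matched Ccl2, Ccl5 or Ccl7. Both strands were searched for the NF-kB consensus (by name), for the glucocorticoid receptor palindrome (GNACA and TGTNC, 3 bases apart) and its shorter core AGAACA, for the AP-1 site TGANTCA, for the interferon response pair (GAAA and GAAA, 2 bases apart) and for the TATA box TATAAA. These are the windows of the strongest fall (Cxcl12), of the falls in Cxcl1 and Cx3cl1, and of Cxcl10, which was not called. Capitals mark the NF-kB consensus and the interferon response pair, and each is written 5′ to 3′ on the gene's strand.
Cxcl12, chr6:117168285-117168584, plus strand: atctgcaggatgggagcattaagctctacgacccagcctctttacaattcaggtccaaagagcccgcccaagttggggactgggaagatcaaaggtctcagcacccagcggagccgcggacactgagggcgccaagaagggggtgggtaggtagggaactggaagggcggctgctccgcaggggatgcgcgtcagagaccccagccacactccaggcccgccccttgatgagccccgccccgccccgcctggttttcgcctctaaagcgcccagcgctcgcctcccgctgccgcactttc
Cxcl1, chr5:90890995-90891294, plus strand: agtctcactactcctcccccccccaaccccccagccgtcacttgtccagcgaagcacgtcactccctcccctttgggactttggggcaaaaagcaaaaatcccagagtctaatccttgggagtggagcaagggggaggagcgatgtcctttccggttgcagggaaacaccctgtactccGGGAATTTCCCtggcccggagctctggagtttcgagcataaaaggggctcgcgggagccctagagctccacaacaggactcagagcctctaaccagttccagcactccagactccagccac
Cxcl10, chr5:92348840-92349139, minus strand: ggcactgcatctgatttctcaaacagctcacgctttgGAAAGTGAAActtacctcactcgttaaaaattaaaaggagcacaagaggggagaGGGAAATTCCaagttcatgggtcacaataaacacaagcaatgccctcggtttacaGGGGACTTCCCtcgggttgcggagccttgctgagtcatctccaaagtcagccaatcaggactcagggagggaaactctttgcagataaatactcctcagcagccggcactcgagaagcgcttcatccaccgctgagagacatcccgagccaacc
Cx3cl1, chr8:94771930-94772229, plus strand: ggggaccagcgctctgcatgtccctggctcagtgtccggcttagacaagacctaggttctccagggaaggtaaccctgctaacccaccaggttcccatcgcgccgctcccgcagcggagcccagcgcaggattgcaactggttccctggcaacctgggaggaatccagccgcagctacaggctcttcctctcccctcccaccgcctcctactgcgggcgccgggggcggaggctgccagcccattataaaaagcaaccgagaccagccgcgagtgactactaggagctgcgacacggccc

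The Cxcl1 window held the NF-kB consensus at -71, counted from the start, with an overlapping match on the other strand at -70. The Cxcl10 window held it at -159 and, as overlapping matches, at -104 and -103, and also held an AP-1 site at -74 and an interferon response pair at -213. The Cx3cl1 window held a TATA box at -6 and no other match, and the Cxcl12 window held none of the 6 motifs. Of the other windows, Ccl9 held an NF-kB consensus at -35 and an AP-1 site at -53, Cxcl14 an interferon pair at -172 and a match of AGAACA at -193, and Ccl8 a TATA box at -32. Ccl9 also held TATA matches at -224, -94 and -92. Among 32851 RefSeq windows of this length, 8.46% held the NF-kB consensus, 0.475% the receptor palindrome, 19.0% the letters AGAACA, 7.81% the AP-1 site, 3.44% the interferon pair and 13.6% the TATA box. A match is a description of these letters, not a site or a cause, and a missing match covers this window only.

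Cxcl12, the ligand of Cxcr4 that guides stem cells, lymphocytes and muscle precursors, had the largest difference of the 10 genes. Its leading probe read 622.1, 636.8, 553.6 and 601.3 in Dex myotubes at 6 h, against 2290.9, 2415.5, 1720.9 and 1477.9 in ethanol myotubes. The 24 h arrays read 349.7, 318.9, 355.2, 336.1 and 308.3 with Dex, against 952.4, 991.4, 961.3, 1016.7 and 1047.5 with ethanol. Every Dex array lay below every ethanol array at both times, and the ethanol arrays at 6 h were the most spread. The means were 603 ± 36.3 with Dex and 1976 ± 449 with ethanol at 6 h (SD, n = 4 each). At 24 h they were 334 ± 19.9 with Dex and 994 ± 39.3 with ethanol (SD, n = 5 each). The log2 fold change was -1.68 (SE 0.10, limma adjusted p = 2.57e-11) at 6 h and -1.58 (SE 0.09, adjusted p = 7.49e-12) at 24 h. The difference between the 2 effects was not called (0.11, SE 0.14, adjusted p = 0.722). The mean over the 5 Cxcl12 probes gave -0.70 at 6 h and -0.80 at 24 h, both still called.

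The 5 Cxcl12 probes are annotated to 3 RefSeq transcript records. The leading probe belongs to the first record, and the other 4 probes are split evenly over the remaining records. The second probe (ILMN_2737302) averaged 211 ± 24.1 with Dex and 411 ± 76.4 with ethanol at 6 h, and 141 ± 5.93 with Dex and 332 ± 30.3 with ethanol at 24 h. Its groups did not overlap at either time, with log2 fold changes of -0.95 (SE 0.10, limma adjusted p = 5.79e-07) and -1.23 (SE 0.09, adjusted p = 6.00e-10). The third (ILMN_3158250) averaged 174 ± 17.7 with Dex and 312 ± 57.0 with ethanol at 6 h, and 126 ± 8.15 with Dex and 270 ± 26.0 with ethanol at 24 h. Its groups did not overlap either, with log2 fold changes of -0.83 (SE 0.10, adjusted p = 5.86e-06) and -1.10 (SE 0.09, adjusted p = 6.06e-09). The remaining pair, 1 probe of each of these records, lay below the yardstick in every group. Their log2 fold changes ran from -0.06 to -0.01 and neither was called. Each of the 3 records therefore had a probe that was called lower at both times. Probe sequences were not at hand, so whether a probe reads only the transcript it is annotated to was not tested.

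**Figure D2:**
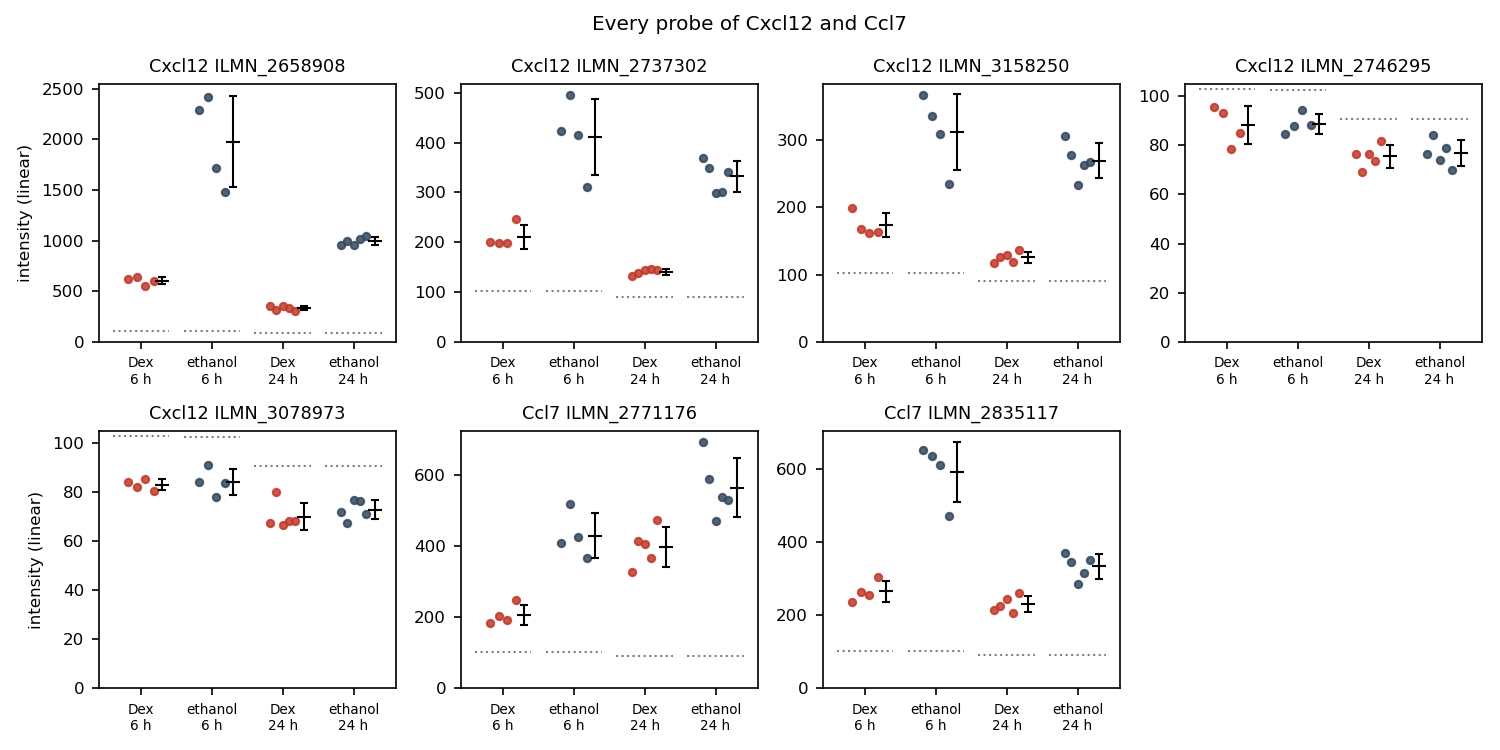
Intensity of every probe of Cxcl12 and of Ccl7 on every array (linear axis), Dex left of ethanol at each time. Points are arrays, black bars the mean ± SD, and the dotted line the 95th percentile of the olfactory receptor probes. The 3 brighter Cxcl12 probes and the second Ccl7 probe have all Dex points below all ethanol points at both times, while 2 Cxcl12 probes lie below the dotted line.

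Ccl7 and Ccl2 attract monocytes through the receptor Ccr2, and Ccl8 belongs to the same family of monocyte chemoattractant proteins. In RefSeq these 3 genes lie together on chromosome 11, with Ccl11 and Ccl12 between Ccl7 and Ccl8. The leading Ccl7 probe read 183.0, 202.3, 193.2 and 248.7 in Dex myotubes at 6 h, against 407.6, 517.7, 426.4 and 366.8 in ethanol myotubes. Its 24 h intensities were 326.3, 415.0, 405.4, 366.4 and 474.1 with Dex, against 693.9, 590.1, 470.2, 539.3 and 531.1 with ethanol. The groups were apart at 6 h, and at 24 h only Dex replicate 5 and ethanol replicate 3 overlapped. Its log2 fold change was -1.05 (SE 0.12, limma adjusted p = 1.39e-06) at 6 h and -0.51 (SE 0.11, adjusted p = 0.00225) at 24 h. The second Ccl7 probe (ILMN_2835117) averaged 265 ± 28.7 with Dex and 593 ± 82.0 with ethanol at 6 h, and 230 ± 21.5 with Dex and 334 ± 33.3 with ethanol at 24 h. Its groups did not overlap at either time, and its log2 fold changes were -1.16 (SE 0.10, adjusted p = 1.07e-08) and -0.53 (SE 0.09, adjusted p = 0.000173).

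Ccl2 had 1 probe, which read 85.1, 86.0, 96.5 and 87.9 in Dex myotubes at 6 h, against 110.6, 101.1, 109.2 and 121.5 in ethanol myotubes. At 24 h it read 82.7, 85.6, 90.9, 90.7 and 88.3 with Dex, against 143.3, 135.3, 113.3, 120.1 and 126.5 with ethanol. Dex arrays lay below all ethanol arrays at both times. The Dex means lay below the yardstick and the ethanol means above it. The log2 fold change was -0.31 (SE 0.07, limma adjusted p = 0.00612) at 6 h and -0.54 (SE 0.06, adjusted p = 1.58e-06) at 24 h. With the Dex reading at background, these sizes understate any change in Ccl2 RNA.

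Ccl8 read 379.9, 397.5, 345.8 and 338.2 in Dex myotubes at 6 h, against 491.9, 467.4, 381.0 and 366.2 in ethanol myotubes, and these groups overlapped. The 24 h arrays read 229.8, 221.4, 232.7, 202.2 and 256.9 with Dex, against 286.8, 289.5, 265.8, 284.9 and 281.8 with ethanol, with no overlap. It was not called at 6 h (-0.22, SE 0.08, limma adjusted p = 0.141) and was called at 24 h (-0.31, SE 0.08, adjusted p = 0.00809). Between Ccl7 and Ccl8 on the chromosome, Ccl11, an eosinophil attractant, averaged 118 with Dex and 126 with ethanol at 6 h, and 106 with Dex and 107 with ethanol at 24 h. Its log2 fold changes of -0.09 and -0.03 were not called (adjusted p = 0.517 and 0.834). Ccl12 lay below the yardstick and was not called either.

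Cxcl1 attracts neutrophils through Cxcr2. Its probe read 109.8, 113.4, 116.7 and 178.7 in Dex myotubes at 6 h, against 171.1, 278.9, 220.4 and 162.7 in ethanol myotubes. Its 24 h intensities were 168.8, 198.3, 248.9, 157.5 and 226.0 with Dex, against 410.0, 324.6, 209.6, 304.6 and 390.6 with ethanol. At 6 h the Dex array numbered 4 lay above the ethanol arrays numbered 1 and 4, and at 24 h the Dex arrays numbered 3 and 5 lay above the ethanol array numbered 3. The log2 fold change was -0.68 (SE 0.19, limma adjusted p = 0.0305) at 6 h and -0.70 (SE 0.17, adjusted p = 0.00740) at 24 h. The 6 h call was lost with quantile normalization (adjusted p = 0.0503), array weights (0.106) and the near-empty directions as covariates (0.0575), and without ethanol replicate 2 (0.110) or 3 (0.0828) or Dex replicate 1 (0.0905), 2 (0.0903) or 3 (0.0841). The 24 h call was lost without both 24 h arrays numbered 1 (-0.55, adjusted p = 0.0581), an alternative chosen after seeing the data. Its chromosomal neighbour Cxcl2, another neutrophil attractant, lay below the yardstick and was not called at either time.

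Cx3cl1, or fractalkine, is made as a membrane-bound adhesion ligand of Cx3cr1 and becomes soluble when proteases such as Adam10 and Adam17 cut it. It read 333.2, 409.6, 357.7 and 322.1 in Dex myotubes at 6 h, against 499.8, 495.1, 360.4 and 441.9 in ethanol myotubes. At 24 h it read 158.1, 197.0, 164.5, 175.1 and 184.0 with Dex, against 304.9, 275.1, 290.4, 318.4 and 232.8 with ethanol. The groups overlapped at 6 h, where Dex replicate 2 passed ethanol replicate 3, and were apart at 24 h. The log2 fold change was -0.69 (SE 0.09, limma adjusted p = 9.58e-06) at 24 h, a 1.61-fold difference. At 6 h it was -0.33 (SE 0.10) and missed the threshold (adjusted p = 0.0530). At 6 h it was called when only the brightest probe of each gene was tested (0.0464), when dim probes were left out (0.0392), and without ethanol replicate 3 (0.00833), Dex replicate 2 (0.0281) or the 24 h ethanol replicate 5 (0.0346). The difference between the times was not called (-0.36, SE 0.14, adjusted p = 0.145).

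Ccl9, a ligand of Ccr1 that draws myeloid cells, was the only gene of the 10 called higher. It read 137.7, 164.5, 157.3, 123.8 and 152.0 in Dex myotubes at 24 h, against 127.7, 114.7, 110.6, 135.5 and 123.7 in ethanol myotubes, and the groups overlapped. At 6 h it read 121.0, 113.8, 136.8 and 139.3 with Dex, against 106.9, 112.7, 130.3 and 133.3 with ethanol. The log2 fold change was 0.26 (SE 0.08, limma adjusted p = 0.0341) at 24 h and 0.08 (SE 0.09, adjusted p = 0.690) at 6 h. The 24 h call was lost with the near-empty directions as covariates (0.0914) and without ethanol replicate 2 (0.0871), 3 (0.0947) or 5 (0.0540) or Dex replicate 2 (0.0995), 3 (0.0881) or 5 (0.0746).

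Ccl5, which attracts T cells and monocytes and lies next to Ccl9 on chromosome 11, averaged 101 ± 9.93 with Dex and 105 ± 8.51 with ethanol at 6 h. At 24 h it averaged 80.1 ± 3.88 with Dex and 85.4 ± 6.79 with ethanol. Neither difference was called (adjusted p = 0.764 and 0.427). Cxcl10, the interferon-induced ligand of Cxcr3, lay below the yardstick on both probes in every group, and its log2 fold changes ran from -0.11 to 0.09 with none called. The leading Cxcl10 probe still had every Dex array below every ethanol array at 24 h, 70.1 to 77.0 against 77.8 to 87.4 (adjusted p = 0.170), while its other probe had a positive difference of 0.09.

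Cxcl14, a chemokine of epithelia, muscle and other tissues, had 2 probes. The leading probe lay above the yardstick at 6 h and below it at 24 h in both treatments. It read 156.8, 129.8, 126.7 and 128.2 in Dex myotubes at 6 h, against 195.2, 151.9, 145.6 and 103.1 in ethanol myotubes, which overlapped (-0.11, SE 0.12, limma adjusted p = 0.684). The second probe averaged 95.6 ± 10.6 with Dex and 122 ± 17.9 with ethanol at 6 h and was called lower by a small margin (-0.34, SE 0.10, adjusted p = 0.0453) although its groups overlapped. That call was lost with each time fitted alone (0.102), array weights (0.132) and covariates (0.0963), and without ethanol replicate 1 (0.149) or 3 (0.105) or Dex replicate 1 (0.0701), 2 (0.149) or 4 (0.0923). It was also lost without any of 5 single arrays of the 24 h groups, namely ethanol replicate 3 (0.0535) or 5 (0.0514) and Dex replicate 1 (0.0503), 2 (0.0529) or 3 (0.0554). At 24 h neither probe was called.

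**Figure D3:**
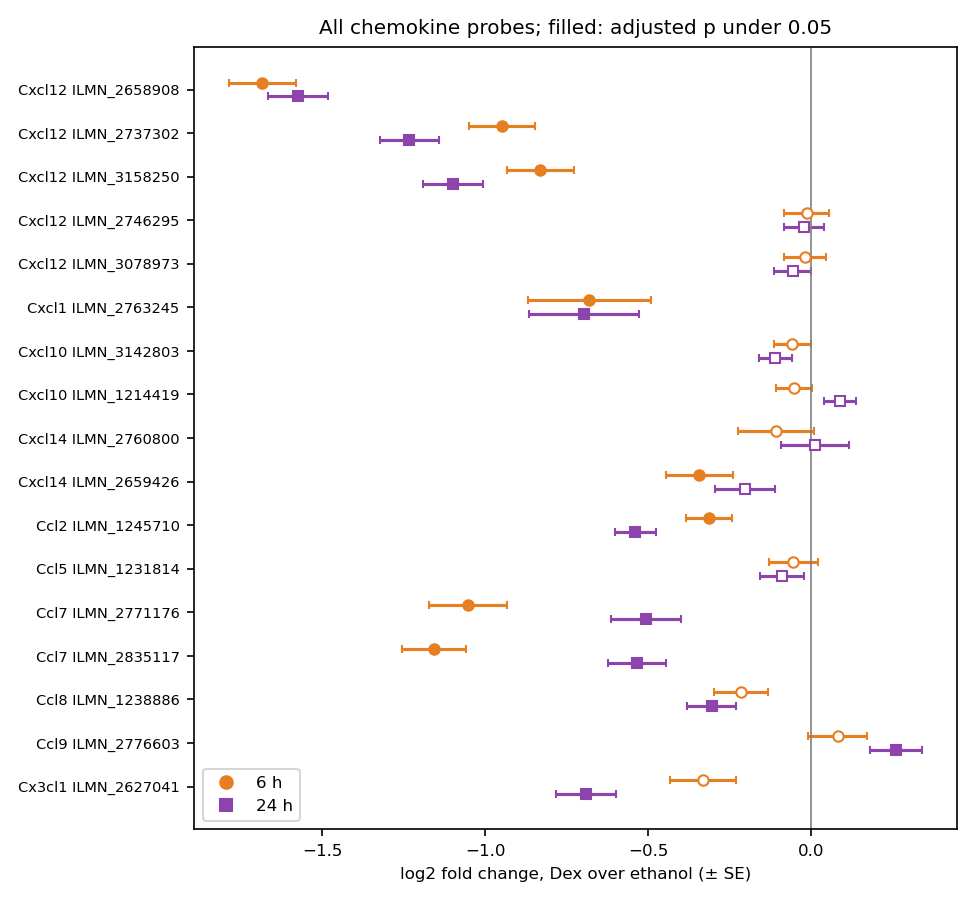
Log2 fold change of Dex over ethanol with its SE for all 17 chemokine probes, the 6 h value above the 24 h value of each probe. Filled markers have an adjusted p under 0.05. Filled markers lie left of 0 for 8 probes at 6 h and for 9 at 24 h, and right of 0 for the Ccl9 probe at 24 h.

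Separation of the groups was counted as well. All Dex arrays lay below all ethanol arrays for the leading probes of 3 genes at 6 h (Cxcl12, Ccl7 and Ccl2), where 5.31% of all leading probes did so. At 24 h this held for 5 genes (Cxcl12, Cxcl10, Ccl2, Ccl8 and Cx3cl1), where 7.86% of all leading probes did so. All Dex arrays lay above all ethanol arrays for 0 of the 10 leading probes at either time, where 5.59% of all leading probes did so at 6 h and 8.42% at 24 h.

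The difference between the Dex effects at 24 h and at 6 h was called for 1 of the 17 probes, where 3.7% of all 45281 probes were called, and for 0 of the 10 leading probes, where 4.69% of all leading probes were called. It was the second Ccl7 probe, with a difference of 0.62 on the log2 scale (SE 0.13, limma adjusted p = 0.00885), so its fall was smaller at 24 h than at 6 h. The leading Ccl7 probe differed by 0.55 (SE 0.16) and missed the threshold (adjusted p = 0.0545). It passed it with the mean of the gene's probes (0.0285), without dim probes (0.0447), with normexp background correction (0.0377), without Dex replicate 4 at 6 h (0.0221) or ethanol replicate 4 at 6 h (0.0377), without Dex replicate 1 (0.0298) or ethanol replicate 1 (0.0260) at 24 h, and without both of these (0.0118). For Ccl2 the difference was -0.22 (SE 0.09, adjusted p = 0.188).

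Levels in ethanol myotubes can be set across the times only as percentiles among the probes of an array, with no test. The leading Ccl7 probe stood at the 88.0th percentile in ethanol at 24 h and the 83.1st at 6 h, while its second probe stood at the 83.7th at 24 h and the 85.8th at 6 h. The percentile in ethanol was thus higher at 24 h for one probe of this gene and lower for the other, while both were called lower with Dex at each time. Ccl2 stood at the 71.7th percentile at 24 h and the 59.5th at 6 h, and Cxcl1 at the 83.2nd at 24 h and the 75.3rd at 6 h. Cxcl14 stood at the 23.5th percentile at 24 h and the 67.7th at 6 h. Cxcl12 stood at the 91.9th at 24 h and the 93.7th at 6 h.

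Other chemokine ligands were mostly dim. Of 29 further ligand genes, 27 had a probe, and 7 read above the yardstick at 6 h and 4 at 24 h. At 6 h 0 were called higher and 1 lower, where 4.31% of all leading probes were called higher and 4.04% lower. At 24 h 1 was called higher and 1 lower, where 8.05% were called higher and 7.73% lower. Cxcl17 was lower at 6 h (-0.24, limma adjusted p = 0.0329), where it averaged 86.0 with Dex and 101.9 with ethanol, both below the yardstick. Cxcl16, a membrane-bound ligand of Cxcr6, was lower at 24 h (-0.20, adjusted p = 0.0406). It averaged 82.0 with Dex, below the yardstick, and 94.5 with ethanol, above it. Ccl20 was higher at 24 h (0.20, adjusted p = 0.0101), where it averaged 88.5 with Dex and 76.8 with ethanol, both below the yardstick. With the near-empty directions as covariates the 3 calls were lost (0.133 for Cxcl17, 0.126 for Cxcl16 and 0.0662 for Ccl20). The mean of a gene's probes ended those of Cxcl17 (-0.16, 0.137) and Ccl20 (0.15, 0.180), array weights those of Cxcl17 (0.0950) and Cxcl16 (0.0608), normexp that of Cxcl16 (0.0557) and each time fitted alone that of Cxcl17 (0.0955). The Cxcl17 call was also lost without ethanol replicate 2 (0.0830), 3 (0.0795) or 4 (0.102) or Dex replicate 1 (0.0616), 2 (0.103) or 3 (0.0566). The Cxcl16 call was lost without ethanol replicate 1 (0.0534), 4 (0.0903) or 5 (0.123) or Dex replicate 1 (0.0552), 2 (0.0504), 4 (0.116) or 5 (0.0760). Between the times, the Dex effect differed by test for 0 of the 27, including the brightest pair Ccl25 (-0.03, adjusted p = 0.912) and Cxcl13 (-0.11, adjusted p = 0.749). The median log2 fold change of the 27 was -0.00 at 6 h and -0.04 at 24 h.

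Of 23 chemokine receptor genes, 22 had a probe, and 6 read above the yardstick at 6 h and 5 at 24 h. Below it in every group were the receptors Ccr2, Ccr1, Cxcr2, Cxcr3 and Cx3cr1 for the ligands above. Cxcr4, the receptor of Cxcl12, was called lower at 6 h. It read 332.7, 315.2, 330.7 and 301.2 in Dex myotubes at 6 h, against 614.4, 456.6, 571.2 and 484.4 in ethanol myotubes, with no overlap (-0.72, SE 0.10, limma adjusted p = 5.16e-05). The 24 h arrays read 190.6, 237.7, 210.2, 268.1 and 231.6 with Dex, against 309.2, 285.1, 271.5, 272.3 and 213.7 with ethanol, which overlapped and was not called (-0.25, SE 0.09, adjusted p = 0.0855). The difference between the times missed the threshold (0.48, SE 0.14, adjusted p = 0.0575), as did that of the atypical receptor Ackr4 (-0.03, adjusted p = 0.925). Ackr3, the scavenger receptor of Cxcl12, lay below the yardstick in every group and was not called. Cxcr6 was called lower at 6 h (-0.36, SE 0.09, adjusted p = 0.0145) with overlapping groups, a call lost with each time fitted alone (0.113) and without ethanol replicate 1 (0.0518) or 3 (0.0734) or Dex replicate 3 (0.0534). Cxcr5 was called higher at 24 h (0.20, adjusted p = 0.0365) with overlapping groups. It averaged 91.3 with Dex, just above the yardstick, and 79.3 with ethanol, below it. At 6 h both Cxcr5 means lay below the yardstick. The mean of its probes gave 0.04 (adjusted p = 0.514), and the call was also lost with covariates (0.118) and without ethanol replicate 2 (0.0596), 3 (0.101) or 4 (0.0855) or Dex replicate 2 (0.0577), 3 (0.0991), 4 (0.0884) or 5 (0.0558). In all, 0 receptors were called higher and 2 lower at 6 h, where 4.31% of all leading probes were called higher and 4.04% lower. At 24 h 1 was called higher and 0 lower, where 8.05% were called higher and 7.73% lower. The median log2 fold changes were -0.04 at 6 h and -0.05 at 24 h.

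Of 13 genes that anchor or cleave chemokines, 1 was called higher and 2 lower at 6 h, where 4.31% of all leading probes were called higher and 4.04% lower. At 24 h 1 was called higher and 4 lower, where 8.05% were called higher and 7.73% lower. Syndecan Sdc2, a heparan sulphate carrier, read 8109.0, 7389.6, 7730.3 and 7176.0 in Dex myotubes at 6 h, against 11041.2, 9452.3, 10194.4 and 9039.3 in ethanol myotubes, with no overlap (-0.38, SE 0.06, limma adjusted p = 0.000353). At 24 h it averaged 4705 ± 232 with Dex and 7450 ± 366 with ethanol, also apart (-0.66, SE 0.06, adjusted p = 1.29e-08). Sdc1 was lower at both times (-0.44 and -0.31, adjusted p = 0.00323 and 0.0126), although the mean of its 3 probes was not called at 6 h (-0.22, adjusted p = 0.0868). Sdc4 was higher at 6 h, 1899 ± 146 with Dex and 1397 ± 96.4 with ethanol (0.44, SE 0.08, adjusted p = 0.00113), and was not called at 24 h (0.08, adjusted p = 0.541). The proteases Mmp2 and Mmp14, which trim chemokines such as Cxcl12 or activate such enzymes, differed in direction at 24 h. Mmp2 averaged 6846 ± 400 with Dex and 4789 ± 343 with ethanol (0.52, SE 0.11, adjusted p = 0.00170). Mmp14 averaged 5409 ± 197 with Dex and 6990 ± 418 with ethanol (-0.37, SE 0.08, adjusted p = 0.00426). Its other probe was not called (0.02), and the mean of both gave -0.18 (adjusted p = 0.0348). Adam17, which sheds Cx3cl1, averaged 963 ± 36.6 with Dex and 1141 ± 44.4 with ethanol at 24 h (-0.25, SE 0.05, adjusted p = 0.00262). Its other probe was not called (-0.10), and the mean of both gave -0.17 (adjusted p = 0.00569). At 6 h Adam17 averaged 1468 with Dex and 1332 with ethanol and was not called (0.14, SE 0.06, adjusted p = 0.171). The Adam17 effect at 24 h minus that at 6 h was -0.39 (SE 0.08, adjusted p = 0.00664). This call was lost with covariates (0.0651) and with the mean of its probes (-0.19, adjusted p = 0.0722).

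Of 26 genes that regulate chemokine transcription or RNA decay, 24 had a probe. At 6 h 6 were called higher and 2 lower, where 4.31% of all leading probes were called higher and 4.04% lower. At 24 h 5 were called higher and 3 lower, where 8.05% were called higher and 7.73% lower. The median log2 fold changes were 0.05 at 6 h and -0.03 at 24 h. Nfkbia, the inhibitor that holds NF-kB in the cytoplasm, averaged 604 ± 33.3 with Dex and 358 ± 52.2 with ethanol at 6 h (0.76, SE 0.09, limma adjusted p = 5.82e-06), and 508 ± 64.5 with Dex and 357 ± 21.9 with ethanol at 24 h (0.50, SE 0.08, adjusted p = 0.000214). Its other probe was not called (0.13 and -0.03), and the mean of both gave 0.45 at 6 h, still called. Zfp36, which binds AU-rich elements and speeds decay of cytokine and chemokine RNAs, was higher at 6 h (0.65, SE 0.09, adjusted p = 1.42e-05) and at 24 h (0.82, SE 0.08, adjusted p = 4.63e-08). Its relative Zfp36l1, which also binds AU-rich elements, went the other way and is given at each time after its values were seen. It averaged 7654 with Dex and 11431 with ethanol at 6 h (-0.59, SE 0.08, adjusted p = 3.36e-05), and 6295 with Dex and 7800 with ethanol at 24 h (-0.31, SE 0.07, adjusted p = 0.00625). Irf1, an interferon-responsive factor, read 1590.0, 1793.7, 1578.7 and 1825.0 in Dex myotubes at 6 h, against 2488.6, 2949.9, 2697.5 and 2878.4 in ethanol myotubes, with no overlap (-0.70, SE 0.06, adjusted p = 3.03e-08). It was also lower at 24 h (-0.45, SE 0.06, adjusted p = 3.75e-06), and 4 of its 5 probes were called lower at both times. The mean of the 5 gave -0.39 at 6 h, still called. Tsc22d3, or GILZ, a well-known glucocorticoid target, was higher at both times (1.69 and 1.43, adjusted p = 1.62e-10 and 3.40e-10), as was the MAP kinase phosphatase Dusp1 (0.65 and 0.47, adjusted p = 3.21e-08 and 6.93e-07). The transcription factor Cebpb was also called higher at both times (0.77 and 0.64, adjusted p = 6.82e-05 and 0.000125), with overlapping groups at 24 h. Stat3 was called higher at 6 h (0.23, adjusted p = 0.0192), and the NF-kB subunit Rela lower at 24 h (-0.18, adjusted p = 0.0286). Between the times, the effect differed by test for 0 of the 24, including Tsc22d3 (-0.26, adjusted p = 0.365) and Zfp36l1 (0.28, adjusted p = 0.165), which were the brightest.

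**Figure D4:**
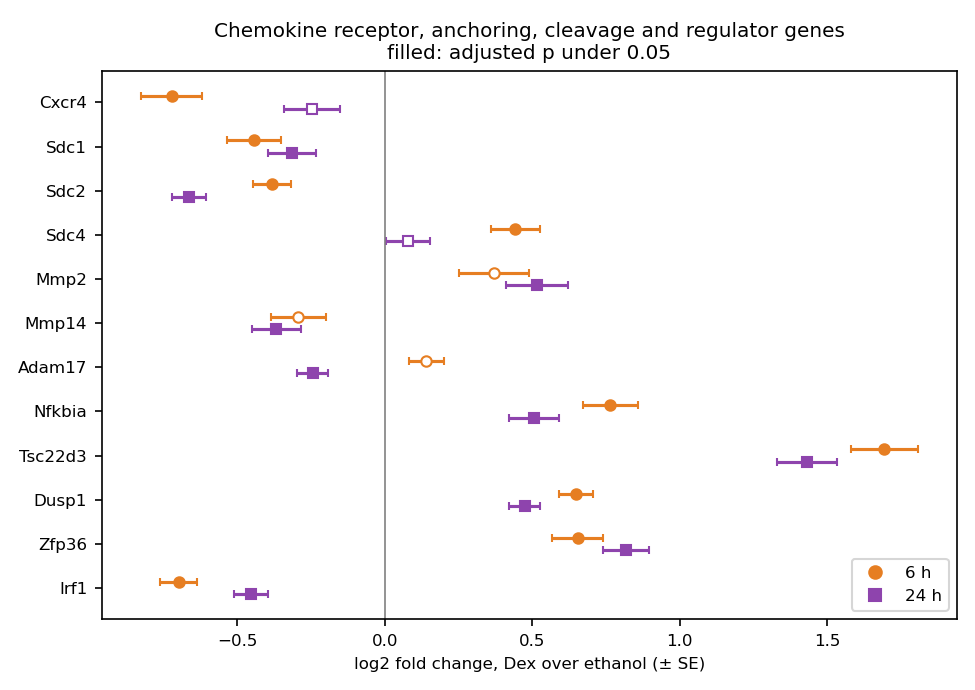
Log2 fold change of Dex over ethanol with its SE, the 6 h value above the 24 h value. The genes are Cxcr4, Sdc1, Sdc2, Sdc4, Mmp2, Mmp14, Adam17, Nfkbia, Tsc22d3, Dusp1, Zfp36 and Irf1. Other named receptors and regulators, among them Zfp36l1 and Cebpb, are not drawn. Filled markers have an adjusted p under 0.05. Nfkbia, Zfp36, Dusp1 and Tsc22d3 lie right of 0 at both times, and Sdc1, Sdc2 and Irf1 left of 0.

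Markers of other cells that secrete chemokines were set beside these results. Of 12 leukocyte markers, 10 had a probe, and 3 lay above the yardstick with Dex and 2 with ethanol at 6 h, 4 with Dex and 2 with ethanol at 24 h. Cd14 (263 with Dex and 246 with ethanol at 6 h, 218 with Dex and 218 with ethanol at 24 h) and Cd3e lay above it in every group, and Aif1 with Dex at both times and Tyrobp with Dex at 24 h. Ptprc, Adgre1, Itgam, Csf1r, Lyz2 and Laptm5 lay below it in every group. The summed intensity of the 10 ran from 1119 to 1138 with Dex and from 1083 to 1154 with ethanol at 6 h, and from 954 to 996 with Dex and from 916 to 950 with ethanol at 24 h, where these ranges did not overlap. Tyrobp alone was called, higher at 24 h (0.36, adjusted p = 0.00357), with overlapping groups. The part of these markers in the chemokine differences was not tested. Endothelial markers summed to 804 to 915 with Dex and 834 to 846 with ethanol at 6 h, and to 676 to 762 with Dex and 702 to 746 with ethanol at 24 h, with 0 of 8 called at either time. Of 8 fibroblast markers, all with a probe and several also expressed by C2C12 cells, 2 were called higher and 1 lower at 6 h, and 3 higher and 5 lower at 24 h. All 8 were thus called at 24 h, where 8.05% of all leading probes were called higher and 7.73% lower. At 6 h these shares were 4.31% and 4.04%. The summed intensity of the fibroblast markers ran from 24375 to 27297 with Dex and from 23582 to 28721 with ethanol at 6 h. At 24 h it ran from 12528 to 14049 with Dex and from 14288 to 16444 with ethanol, and these ranges did not overlap. The part of the fibroblast markers in the 24 h chemokine differences was not tested. Myotube markers summed to 173506 to 179810 with Dex and 173296 to 183605 with ethanol at 6 h, and to 126398 to 137280 with Dex and 125334 to 144568 with ethanol at 24 h, with 11 of 12 genes measured and above the yardstick. Of the 11, 0 were called at 6 h, and at 24 h Ckm was called higher (0.30, adjusted p = 0.0124) and Myog lower (-0.32, adjusted p = 0.0117). Of the 8 markers of proliferating myoblasts, 6 had a probe, and 1 was called higher at each time.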

How the data were processed

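RNA of C2C12 myotubes was measured on 18 single-colour Illumina bead arrays, grouped by sample title. The labels number 4 or 5 replicates per group where the design text says triplicates, and all were used. The authors deposited linear intensities per probe, processed with lumi per the submitters' processing notes. The version, background correction and normalization were not given in the sources used here. Detection p-values and scanner files were not used here. Intensities were put on the log2 scale (pseudocount 0).

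Of 45281 probes, 34885 had 1 gene symbol, 18 several and 10378 none. Symbols were updated by gene ID for 34807 probes and kept for 78. A model with 1 mean per group was fitted in limma 3.58.1 (lmFit, eBayes; R 4.3.3), with Benjamini-Hochberg adjustment over all probes and calls at 0.05. The fit was tested on simulated data with independent noise on every array. That simulation held no near-empty directions, so it does not show how the calls fare with them. SD are over arrays, and the number of arrays limits the precision. Replicate numbers were not used as a block.

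The genes, gene lists and markers were chosen with earlier results of these data known. All probes of the 10 chemokine genes are named. From each other list up to 4 called genes per comparison with the smallest p are named, or the brightest 2 where none was called, and Ccl11, Ccl12, Cxcl2, Ackr3 and the other receptors and markers named beside them were added for their known roles or positions, after values had been seen. Cebpb, Stat3 and Rela, the remaining called regulators, were likewise named after values had been seen. Listed genes with no named probe were not analysed here. Deviations from the group means left 1 of 6 possible directions nearly empty at 6 h and 3 of 8 at 24 h (each under 0.01% of the spread of the 1126 probes with mean log2 above 12), so the residual spread of 14 degrees of freedom counts some that hold almost none. An alternative took these directions as covariates, which left 10. Other alternatives were the brightest probe or the mean of a gene's probes, no dim probes, quantile normalization, normexp background correction with an offset of 50, each time alone, array weights, the replicate number as a block, and each array left out in turn.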

Additional observations from a re-analysis of the deposited data

Results flagged for a closer look

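Of 68 groups of arrays examined (17 probes in 4 groups), 7 held an array that stood apart from the rest of its group, and chance gives about 1 in 20 groups. In Dex myotubes at 6 h, replicate 4 read 247.2 on the second Cxcl12 probe, where the other Dex arrays read 197.7 to 200.5. On the third Cxcl12 probe, Dex replicate 1 at 6 h read 199.9, where the others read 162.3 to 168.5. Dex replicate 4 at 6 h also stood apart for Cxcl1, at 178.7 with the others at 109.8 to 116.7, and Dex replicate 1 at 6 h for the leading Cxcl14 probe, at 156.8 with the others at 126.7 to 129.8. In Dex myotubes at 24 h, replicate 2 read 79.9 on a Cxcl12 probe below the yardstick (ILMN_3078973), where the others read 66.6 to 68.2. Dex replicate 5 at 24 h read 70.1 on the leading Cxcl10 probe, below the others at 75.3 to 77.0, and 78.6 on the other Cxcl10 probe, above the others at 72.1 to 73.3.

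The Dex effect on the second Ccl7 probe differed between 24 h and 6 h by 0.62 on the log2 scale (limma adjusted p = 0.00885), a smaller fall at 24 h. All 7 values that stood apart came from Dex arrays, and the cause was not tested.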

How the results depend on the processing

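The counts of called chemokine probes and genes at 6 h and 24 h stayed within 1.5 times the reported ones under every alternative run. Leaving out 1 array at a time gave 6 to 8 probes and 3 to 5 genes at 6 h, 9 to 10 probes and 6 to 7 genes at 24 h, and 1 to 2 probes and 0 to 1 genes for the difference between the times. Without both 24 h arrays numbered 1 (chosen after seeing the data), with normexp or without dim probes, the difference between the times was called for 2 probes and 1 gene, and for 1 gene when its probes were averaged. Over all probes, 2836 were called at 6 h, and 2045 to 2994 with 1 array left out, 1431 with each time alone, 1741 with array weights and 1378 with the near-empty directions as covariates. At 24 h 5726 were called, 4196 to 6027 with 1 array left out, 11329 with array weights and 2842 with the covariates. The difference between the times gave 1675, 1140 to 1841 with 1 array left out, and 371 with the covariates. Tested over the 19057 genes in place of the 45281 probes, the brightest probe gave 1726, 3142 and 942 calls in the 3 comparisons and the mean of probes 1516, 2856 and 820. In the reported fit the leading probes held 822 higher and 769 lower calls at 6 h, 1535 and 1474 at 24 h, and 894 in all for the difference.

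With the replicate number as a replicate block, 8 chemokine probes and 4 genes were called at 6 h, 10 probes and 7 genes at 24 h, and 1 probe and 0 genes for the difference, over all probes 1931, 3821 and 904. It ended the calls of Cxcl17 at 6 h (adjusted p = 0.0980) and of Cxcl16 (0.0813), Ccl20 (0.0543) and Cxcr5 (0.104) at 24 h. The labels do not say whether the numbers pair the samples. Same-numbered Dex and ethanol arrays deviated from their group means with correlations of -0.11 to 0.17 at 6 h and -0.91 to -0.18 at 24 h. The 24 h correlations were all negative, so same-numbered arrays may not be independent there, as the reported fit takes them to be. The cause was not tested.

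Signs turned only in differences that were not called. Averaging the probes gave -0.10 for Cxcl14 at 24 h and, for the difference between times, -0.10 for Cxcl12 and 0.05 for Cxcl10. Cxcl1's difference between times was 0.05 with normexp, 0.01 with array weights and 0.13 without both arrays numbered 1, where Ccl5's was 0.02. With 1 array left out, Cxcl14 ran from -0.27 to 0.03 and Ccl5 from -0.11 to 0.00 at 6 h, and Cxcl14 from -0.02 to 0.04 at 24 h. The effect at 24 h minus that at 6 h then ran from -0.17 to 0.15 for Cxcl1, from -0.02 to 0.28 for Cxcl14 and from -0.09 to 0.02 for Ccl5. The cause of these changes was not tested. The difference between times has no value with each time alone. A fold change of a probe near the yardstick is limited by the background in its signal.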
